A study of Mus musculus with 4 samples.

Results

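The transcripts of 6 MAPK phosphatase genes (Dusp1, Dusp2, Dusp4, Dusp5, Dusp6 and Dusp10) and of the Sprouty gene Spry1 were followed in mouse T cells treated with an inhibitor of the protein kinase CK2. These 7 genes were picked by symbol out of 37583 features, and all 7 were found in each of the 4 libraries. Naive CD4+ T cells were sorted from the spleens of C57BL/6 mice and stimulated for 24 h on plate-bound antibodies to CD3 and CD28. All 4 cultures received 10 ng/ml IL-1β, 10 ng/ml IL-6, 20 ng/ml IL-23 and 10 µg/ml each of neutralizing antibodies to IL-4 and to IFN-γ, a Th17-polarizing condition that the labels call aTh17. One culture also received 1.5 µM DMAT and another 1 µM CX4945, which are both CK2 inhibitors, and the titles name a separate control culture without each of them. Each group is 1 library. The age and number of the mice, and whether the controls received solvent, are not given in the sources used here.

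MAP kinases (ERK, JNK and p38) are switched on by phosphorylation of a threonine and a tyrosine, and the dual-specificity phosphatases encoded by Dusp genes switch them off by removing both phosphates. Many Dusp genes are themselves induced by MAPK signalling, so that they act as negative feedback, and T cell receptor signals induce several of them. Dusp1, Dusp2, Dusp4 and Dusp5 encode nuclear, inducible enzymes, Dusp6 a cytoplasmic enzyme that prefers ERK, and Dusp10 an enzyme that prefers JNK and p38. Spry1 encodes a Sprouty protein, a feedback inhibitor that acts further upstream, on receptor signalling to Ras and ERK.

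Across libraries the total was 2056635 to 2772525 exon reads, the deposited count used throughout. The labelled cell type was checked against marker genes. All 9 T cell markers were detected in every library, with a summed level of 2826 to 3019 CPM (reads of a gene as a share of its library, scaled by TMM). Of 4 NK cell markers, 4 were at 0 in every library, as were 6 of 9 myeloid markers. The B cell markers summed to 0.437 to 2.16 CPM, the CD8 markers to 2.36 to 4.91 CPM and the myeloid markers to 0 to 0.786 CPM. Of the 9 Th17 markers tested, 5 fell with the inhibitors in the fit described next, among them Il17f. In that fit 0.572% of all genes tested passed as lower.

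Each inhibitor library was set against its own control, as a ratio of CPM with an exact 95% interval that covers counting error only. Each side of a ratio is 1 library, so there is no replicate to check it against and no p-value is given. Both inhibitors were then fitted together against both controls, in a model that blocks on the experiment. The test was edgeR's quasi-likelihood, and p-values were adjusted by the Benjamini-Hochberg method over all 9262 genes that had at least 20 reads in each pair. This fit treats the 2 inhibitors as replicates of CK2 inhibition, although they differ in compound, dose and experiment.

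Dusp6 was the member whose level was lower with both inhibitors than in their own controls. It had 240 exon reads (86.6 CPM) in the control for DMAT, 109 (42.8 CPM) with DMAT, 133 (58.1 CPM) in the control for CX4945 and 87 (42.7 CPM) with CX4945. Both inhibitor libraries lay below both controls, and their levels were nearly equal, while the controls themselves differed. With DMAT Dusp6 was 2.02-fold lower (95% counting interval 1.61 to 2.56). With CX4945 it was 1.36-fold lower (1.03 to 1.81). The control for CX4945 was itself 1.49-fold below the control for DMAT (1.2 to 1.86), a gap wider than the one between CX4945 and its own control. In this bulk RNA, fewer cells that express a gene and less of its RNA per cell cannot be told apart.

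In the joint fit Dusp6 fell by 0.76 on the log2 scale ± 0.17 (SE; edgeR quasi-likelihood, BH adjusted p = 0.0119), and its p-value ranked 53 among the 9262 genes. It was 1 of 7 members to pass, where 0.950% of all genes tested passed, 0.378% of all genes being higher and 0.572% lower. The call rests on the choice of fit: the adjusted p was 0.999 without the block, 1.00 with DESeq2, 0.0519 with no filter on low counts and 0.305 when at least 100 reads were asked of each pair. It was also lost whichever library was left out, in fits that had to drop the block. The log2 fold change was -1.02 to -0.44 in these fits. Its sign could not turn there, since both inhibitor libraries lay below both controls.

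**Figure D1:**
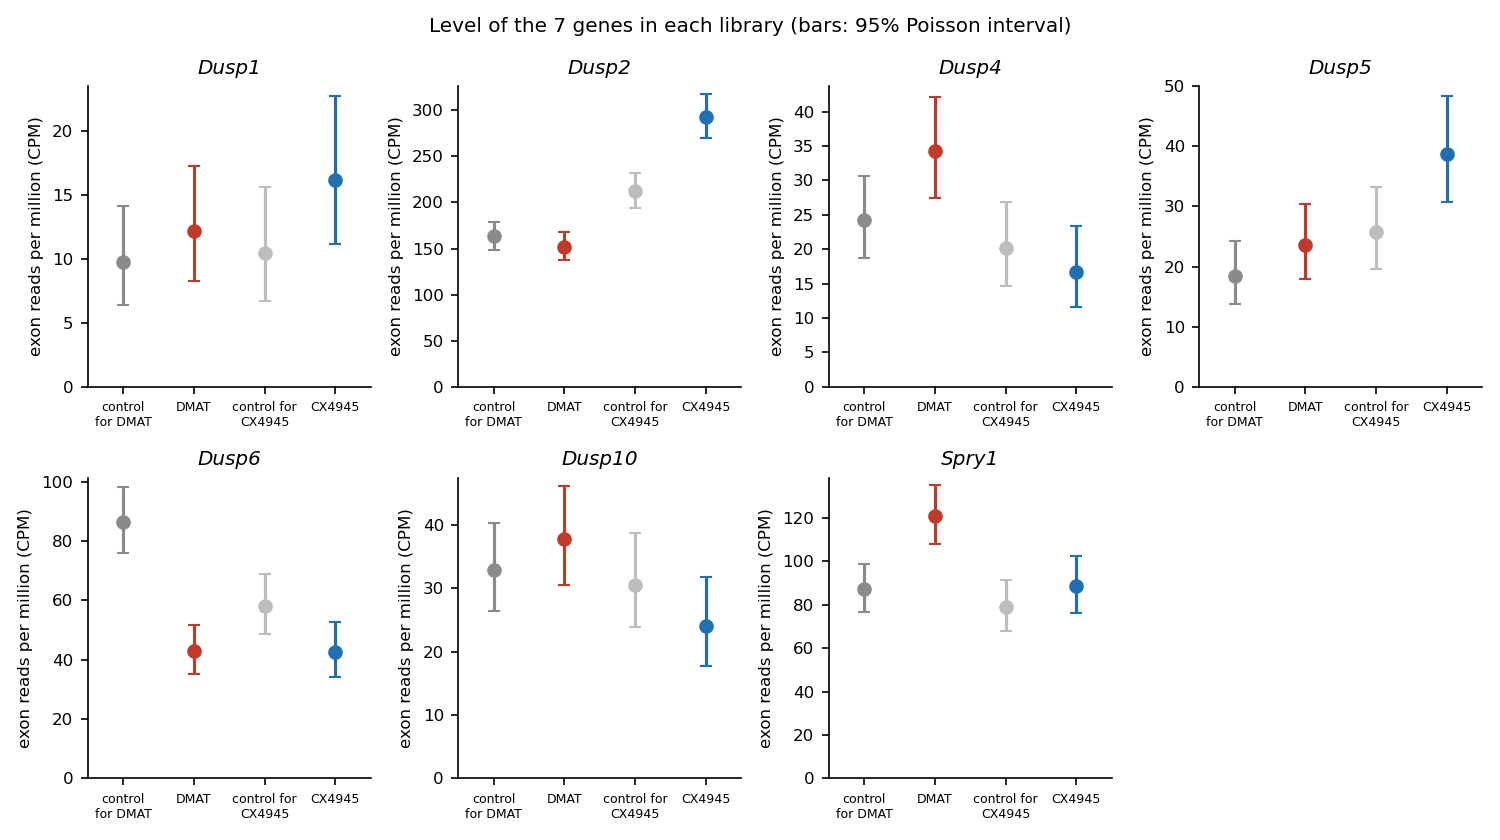
Level of each of the 7 genes in the 4 libraries, in CPM of exon reads (linear axes from 0). Points are single libraries and bars are 95% Poisson intervals, which cover counting error only. Dusp6 is at 42.8 and 42.7 CPM with the inhibitors and at 86.6 and 58.1 CPM in the controls, and Dusp2 spans 152 to 293 CPM.

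The region before the Dusp6 start site is shown with those of 2 other phosphatase genes, Dusp5, which had a positive ratio with both inhibitors, and Dusp2, the most abundant of the 7. Each is 250 bases upstream of the RefSeq start (build GRCm38.p6, in which 6 of the 7 genes had an entry), read 5′ to 3′ along the gene. Capitals mark matches, on either strand, to motifs of factors that act downstream of MAPK or cyclic AMP signalling: an ETS core CGGAAG, an EGR site GCGNGGGCG, the CArG box bound by SRF, an AP-1 site TGANTCA, a full CRE TGACGTCA and the shorter core TGACG, which lies within it.
Dusp6, chr10:99262981-99263230, plus strand: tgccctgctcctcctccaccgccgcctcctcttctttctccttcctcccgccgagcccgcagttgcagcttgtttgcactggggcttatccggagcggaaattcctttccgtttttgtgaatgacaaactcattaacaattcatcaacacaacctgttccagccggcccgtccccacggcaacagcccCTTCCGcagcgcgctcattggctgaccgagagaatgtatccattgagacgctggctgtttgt
Dusp5, chr19:53528895-53529144, plus strand: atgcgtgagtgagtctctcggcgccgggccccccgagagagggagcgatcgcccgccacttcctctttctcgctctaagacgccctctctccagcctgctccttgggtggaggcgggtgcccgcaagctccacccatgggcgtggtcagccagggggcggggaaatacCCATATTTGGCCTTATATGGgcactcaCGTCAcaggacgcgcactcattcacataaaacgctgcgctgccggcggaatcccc
Dusp2, chr2:127335909-127336158, plus strand: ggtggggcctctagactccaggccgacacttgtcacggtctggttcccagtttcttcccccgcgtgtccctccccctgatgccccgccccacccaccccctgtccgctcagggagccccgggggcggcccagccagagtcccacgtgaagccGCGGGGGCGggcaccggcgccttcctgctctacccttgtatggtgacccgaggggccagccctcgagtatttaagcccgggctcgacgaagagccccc

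The Dusp6 window held 1 ETS core, 62 to 57 bases before the start. The Dusp5 window held 2 adjacent CArG boxes, which span 82 to 63 bases before the start, and 1 CRE core. In Dusp2 there was 1 EGR site, 98 to 90 bases before the start. Dusp1, whose window is not printed, held 1 full CRE and 3 CRE cores, 2 of which lie in that CRE. No match to these motifs was found in the windows of Dusp10 and Spry1. Among 32841 windows of the same length, 13.6% held the ETS core, 1.47% a CArG box, 4.70% the EGR site, 6.75% the AP-1 site, 1.55% the full CRE and 17.8% its core. A match is a stretch of letters and not evidence of binding.

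Dusp5 and Dusp1, which encode nuclear phosphatases, had positive ratios with both inhibitors without passing the test. Dusp5 had 51 reads (18.4 CPM) in the control for DMAT, 60 (23.6 CPM) with DMAT, 59 (25.8 CPM) in the control for CX4945 and 79 (38.8 CPM) with CX4945. The DMAT library lay between the 2 controls, so the groups overlap. Its ratio was 1.28 with DMAT (0.868 to 1.9) and 1.5 with CX4945 (1.06 to 2.14), and just the second interval leaves out 1. Set against the control for CX4945, the DMAT library gave a log2 ratio of -0.12 in place of 0.35. The joint log2 fold change of Dusp5 was 0.48 ± 0.24 (edgeR quasi-likelihood, BH adjusted p = 0.656). It was 0.11 without the CX4945 library and 0.82 without the DMAT library.

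Dusp1, which acts on p38 and JNK as well as ERK, was the least abundant member. It had 27 reads (9.74 CPM) and 24 (10.5 CPM) in the controls for DMAT and CX4945, and 31 (12.2 CPM) and 33 (16.2 CPM) with the inhibitors. Both inhibitor libraries lay above both controls, as did 14.8% of all genes tested. The ratios were 1.25 (0.722 to 2.18) and 1.54 (0.885 to 2.73), so neither difference was detectable at this depth, and the joint log2 fold change was 0.47 ± 0.34 (BH adjusted p = 0.836 in edgeR).

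Spry1, the Sprouty gene, also lay higher in both inhibitor libraries than in both controls, as did 14.8% of genes. It had 242 reads (87.3 CPM) in the control for DMAT, 308 (121 CPM) with DMAT, 181 (79.1 CPM) in the control for CX4945 and 181 (88.8 CPM) with CX4945. The library that stands out is that with DMAT, and the CX4945 library exceeds the control for DMAT by a margin well inside counting error. The ratio was 1.39 with DMAT (1.17 to 1.65) and 1.12 with CX4945 (0.908 to 1.39). Spry1 did not pass the joint test (log2 fold change 0.33 ± 0.14, unadjusted p = 0.0189, BH adjusted p = 0.434 in edgeR). The log2 fold change was 0.092 without the DMAT library and 0.54 without the CX4945 library.

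Dusp2, a phosphatase named for its expression in activated lymphocytes, was the most abundant of the 7 genes and had opposite signs with the 2 inhibitors. It had 453 reads (163 CPM) in the control for DMAT, 387 (152 CPM) with DMAT, 486 (212 CPM) in the control for CX4945 and 597 (293 CPM) with CX4945. Its highest level was thus with one inhibitor and its lowest with the other. The ratio was 0.931 with DMAT (0.81 to 1.07) and 1.38 with CX4945 (1.22 to 1.56). The controls differed to nearly the same extent, with a ratio of 1.3 for that of CX4945 over that of DMAT (1.14 to 1.48). Reads across exon junctions, a readout within the same libraries, numbered 49, 34, 65 and 84 in the same order, with ratios of 0.756 (0.473 to 1.19) and 1.45 (1.04 to 2.04). Between the controls the junction ratio was 1.61 (1.09 to 2.38), larger than that of CX4945 over its own control. In the joint fit the log2 fold change of Dusp2 was 0.19 ± 0.11 (BH adjusted p = 0.740 in edgeR), and it became -0.30 when the CX4945 library was left out.

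Dusp4, a nuclear phosphatase of ERK and JNK, and Dusp10 were positive with DMAT and negative with CX4945. Dusp4 had 67 reads (24.2 CPM) and 46 (20.1 CPM) in the controls, 87 (34.2 CPM) with DMAT and 34 (16.7 CPM) with CX4945. Its ratio was 1.41 with DMAT (1.02 to 1.98) and 0.83 with CX4945 (0.516 to 1.32). Dusp10 had 91 reads (32.8 CPM) and 70 (30.6 CPM) in the controls, 96 (37.7 CPM) with DMAT and 49 (24.0 CPM) with CX4945. Both of its intervals include 1, at 0.854 to 1.55 with DMAT and 0.534 to 1.15 with CX4945. For both genes the controls lay between the inhibitor libraries. The joint log2 fold changes were 0.18 ± 0.26 for Dusp4 and -0.04 ± 0.22 for Dusp10 (edgeR, BH adjusted p = 0.952 and 0.989), and each changed sign when a library was left out.

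**Figure D2:**
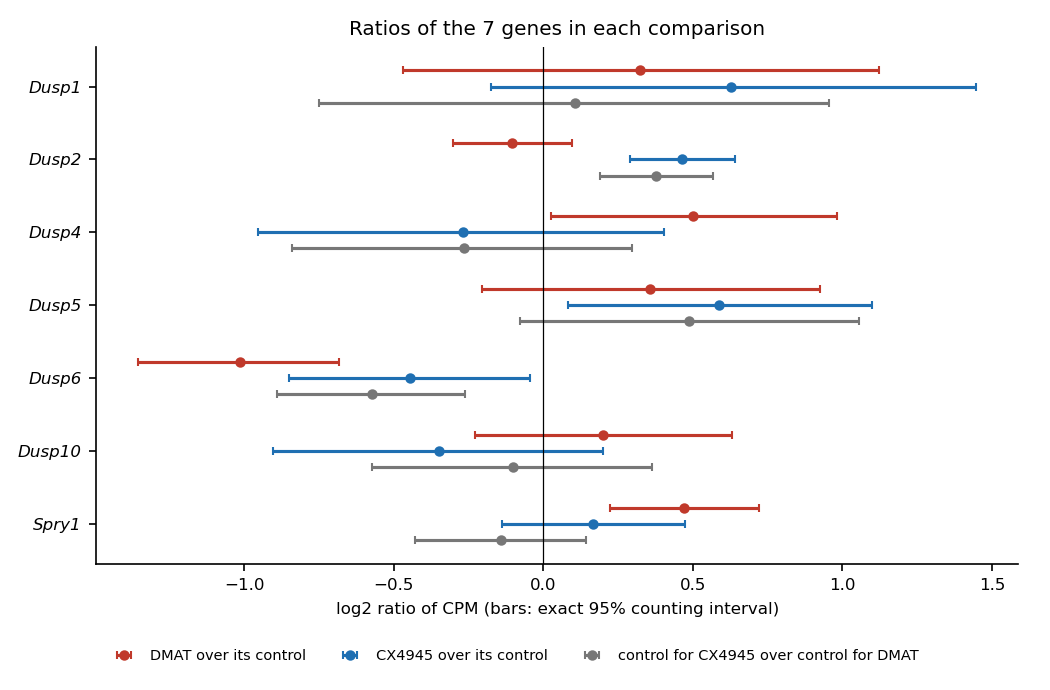
Log2 ratio of CPM for each of the 7 genes in 3 comparisons, with exact 95% counting intervals. Dusp6 is the gene whose interval lies below 0 in all 3, including the comparison of the 2 controls, and Dusp2, Dusp4 and Dusp10 have points on opposite sides of 0 for the 2 inhibitors.

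Against the titled controls 3 were higher with both inhibitors (Dusp1, Dusp5 and Spry1), 1 was lower with both (Dusp6) and 3 had opposite signs, where the shares among all genes tested were 26.8%, 25.8% and 47.5%. The median log2 ratio was 0.30 with DMAT and 0.16 with CX4945, against 0.00 for all genes in either comparison. Each median of the members is the value of 1 gene, Dusp1 with DMAT and Spry1 with CX4945. The counting intervals of these ratios include 1, at 0.722 to 2.18 for Dusp1 and 0.908 to 1.39 for Spry1. Whether the members as a set differ from all genes was not tested. Dusp6 was the 1 member that differed at least 2-fold with DMAT, where 2.41% of genes did so and 1.33% were lower. With CX4945 0 members reached 2-fold (1.72% of genes), and between the controls 0 did (2.29% of genes). The counting interval left out 1 for 3 members with DMAT (19.0% of genes) and for 3 with CX4945 (14.7% of genes), but also for 2 members between the controls (18.7% of genes). The groups did not overlap for Dusp6, which lay lower (15.0% of genes), nor for Dusp1 and Spry1, which lay higher (14.8% of genes).

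**Figure D3:**
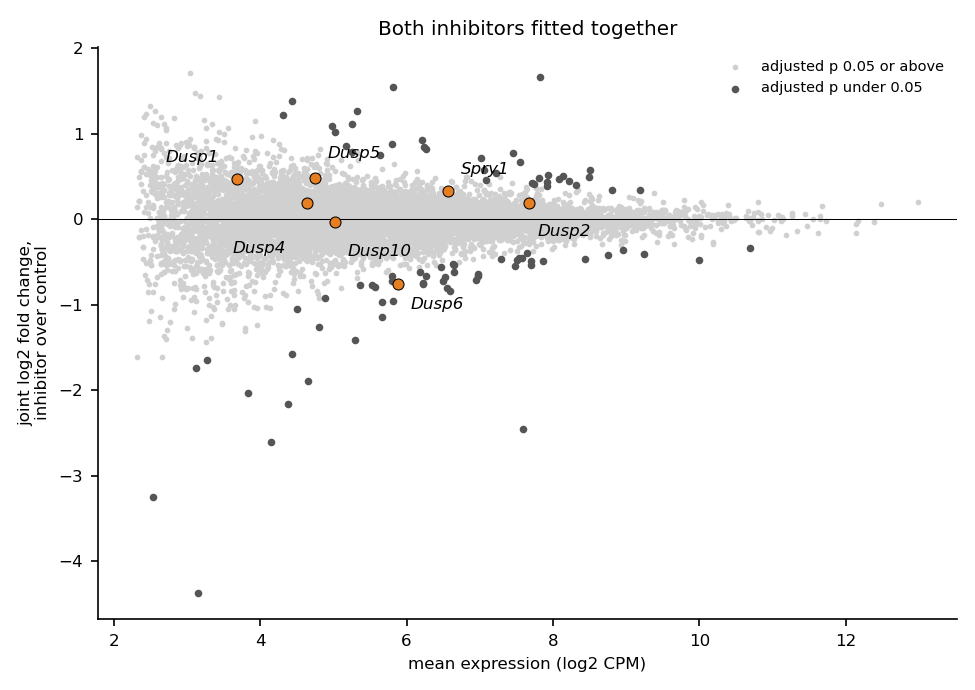
Joint log2 fold change of inhibitor over control against mean expression (log2 CPM) for all 9262 genes tested. Dark points have an adjusted p under 0.05, and of the 7 labelled genes Dusp6 is among them, at -0.76.

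Compared per length of exon, Dusp2 stood highest in every library, at 75.9 to 146 CPM per kilobase of exon. Spry1 (27.2 to 41.7) and Dusp6 (15.3 to 31.0) followed. In the control for DMAT Dusp6 and Spry1 were level (31.0 and 30.0), whereas with DMAT Spry1 was at 41.7 and Dusp6 at 15.3, and their intervals no longer overlapped. Dusp4 lay at 6.09 to 12.5, Dusp5 at 7.44 to 15.7 and Dusp10 at 7.9 to 12.4, and neighbours in order among these 3 were not separated beyond counting error in the controls or with DMAT. With CX4945 Dusp5 stood at 15.7, next to Dusp6 at 15.3. Dusp1 was lowest, at 3.61 to 6.0, within counting error of Dusp4 in the control for CX4945 and with CX4945.

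On the same length scale the makeup of the 6 Dusp transcripts differed between libraries. Dusp6 made up 21.6% of their summed level in the control for DMAT and 11.8% with DMAT, and 13.1% in the control for CX4945 and 7.74% with CX4945. Dusp2 took 57.0%, 58.3%, 66.9% and 74.2% in the same order. Shares of the same sum depend on each other, and Dusp2 itself stood at 106 and 146 CPM per kilobase in the CX4945 pair. The Dusp6 share also differed between the controls, and that with DMAT was near that in the control for CX4945. The share of Dusp5 was 5.19% and 7.32% in the DMAT pair and 6.58% and 7.95% in the CX4945 pair. The summed level was 143 and 130 CPM per kilobase in the DMAT pair and 159 and 197 in the CX4945 pair.

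**Figure D4:**
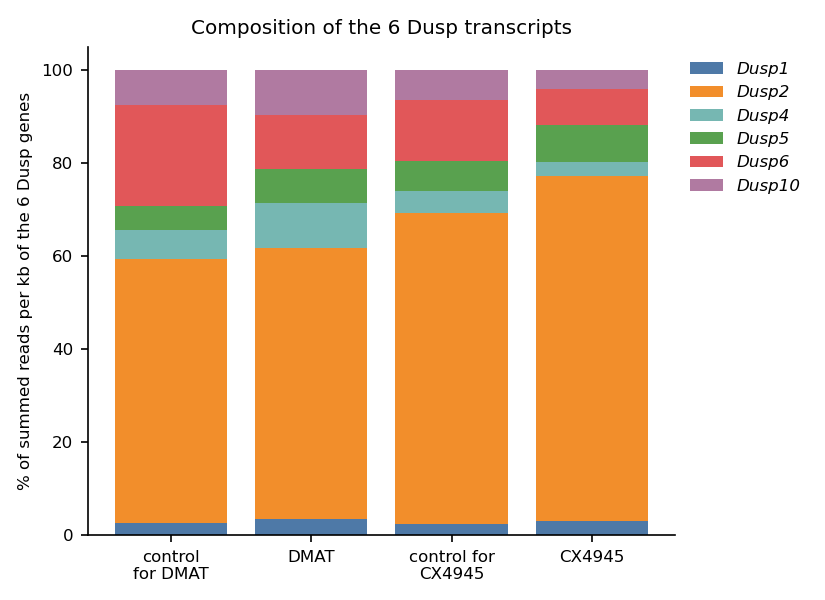
Share of each gene in the summed level of the 6 Dusp transcripts (CPM per kilobase of exon, percent) in each library. The Dusp6 segment takes 21.6% and 13.1% in the controls and 11.8% and 7.74% with the inhibitors.

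Ratios of 2 genes within 1 library do not depend on how libraries are scaled. Per kilobase, Dusp6 stood to Dusp5 as 4.16 to 1 in the control for DMAT (3.07 to 5.75) and as 1.61 with DMAT (1.16 to 2.24). In the CX4945 pair this ratio was 1.99 (1.46 to 2.76) in the control and 0.974 (0.71 to 1.34) with the inhibitor. The controls thus differed in this ratio too, with intervals that do not overlap. The interval with DMAT overlaps that of the control for CX4945. Dusp6 to Spry1 went from 1.03 (0.859 to 1.24) to 0.368 (0.293 to 0.459) in the DMAT pair and from 0.764 (0.606 to 0.961) to 0.5 (0.382 to 0.649) in the CX4945 pair. These 2 partners, both with positive ratios to their own controls, were chosen after their values were seen. Against Dusp10 and Dusp4 the ratio of Dusp6 was also lower with DMAT, at 1.24 (0.93 to 1.64) and 1.23 (0.918 to 1.65) from 2.87 (2.25 to 3.69) and 3.51 (2.67 to 4.67). In the CX4945 pair these ratios did not separate from counting error, at 2.07 (1.54 to 2.8) in the control and 1.93 (1.35 to 2.8) with CX4945 for Dusp10, and 2.83 (2.01 to 4.05) and 2.51 (1.67 to 3.85) for Dusp4.

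Every exon read of the 7 genes was counted as unique in the deposited tables (100%). In mm9, the build of the files, Dusp6 lies on chromosome 10 from 98725865 to 98730122, Dusp2 on chromosome 2 from 127161895 to 127164112, Dusp5 on chromosome 19 from 53603599 to 53616921 and Spry1 on chromosome 3 from 37538869 to 37543520. Dusp1 is on chromosome 17 from 26642535 to 26645464, Dusp4 on chromosome 8 from 35870351 to 35882948 and Dusp10 on chromosome 1 from 185837181 to 185899515. Reads within a gene but outside its exons were few. Spry1 had the most, with 31, 21, 17 and 10 in the control for DMAT, DMAT, the control for CX4945 and CX4945, so its ratios there were 0.738 (0.403 to 1.33) and 0.66 (0.27 to 1.53), with intervals that include 1. Dusp5 had 11, 6, 3 and 12 such reads in the same order, with ratios of 0.594 (0.18 to 1.75) for DMAT and 4.49 (1.21 to 24.8) for CX4945, and the latter interval, from few reads, leaves out 1. Dusp6 had 5, 3, 4 and 6 such reads and 7, 6, 7 and 4 across exon junctions, too few to show a change of the size seen in its exon reads.

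The gene whose 3 log2 ratios (DMAT, CX4945 and control against control) lay nearest to those of Dusp6 was Ttc19, at a distance of 0.16 over 3 ratios, among 6967 other genes with at least 200 reads. Ccnb1, a mitotic cyclin, and Haus3, a subunit of a spindle complex, came next at 0.16 and 0.18. With 4 libraries such likeness is a description of 4 values.

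Other phosphatases of the same class were looked at next. Dusp16, which encodes a JNK phosphatase, had 116 reads in the control for DMAT, 67 with DMAT, 80 in the control for CX4945 and 48 with CX4945. It lay lower in both inhibitor libraries than in both controls, as did 15.0% of all genes tested. Its log2 ratios were -0.65 with DMAT and -0.55 with CX4945, and it did not pass the test (joint log2 fold change -0.62 ± 0.22, unadjusted p = 0.00646, BH adjusted p = 0.263 in edgeR). Dusp7, a cytoplasmic ERK phosphatase, had log2 ratios of 0.30 and 0.28 (BH adjusted p = 0.785). Dusp9 had 2 to 5 reads and was not tested, and Dusp8, split over 2 loci in the files, was not analysed here. Of 13 atypical small phosphatases 3 were tested and 0 passed. Dusp11, an RNA phosphatase and the most abundant of them, stood at -0.04 with DMAT and 0.33 with CX4945, and Dusp12 at 0.16 and 0.33 (39.3% of its reads unique). Among the Sprouty relatives, Spred1 and Spred2, inhibitors of Ras signalling, were tested and 0 of 2 passed, with joint log2 fold changes of 0.07 ± 0.17 and 0.20 ± 0.21. Spry2 and Spry4 had between 1 and 5 reads in a library.

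The kinases that these phosphatases act on, and those above them, did not pass the test. Of 16 genes from Sos1 to ERK, 16 were tested and 0 passed, with a median joint log2 fold change of -0.02 against 0.00 for all genes. Braf, a Raf kinase, and Ksr1, a scaffold, had the lowest p-values of this list, with joint log2 fold changes of -0.26 ± 0.17 and -0.15 ± 0.11 (edgeR, BH adjusted p = 0.802 and 0.855). Of 20 genes of the JNK and p38 cascades 15 were tested and 0 passed, with a median of 0.10. Map3k3 and the p38 kinase gene Mapk14 stood at 0.23 ± 0.14 and 0.18 ± 0.11 (BH adjusted p = 0.767 for both), and Mapkapk2, a kinase activated by p38, at -0.08 ± 0.11.

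Among 18 other negative regulators of Ras and MAPK signalling, 18 were tested and 0 passed. Cblb, a ubiquitin ligase that restrains T cell activation, had 235 reads in the control for DMAT and 366 with DMAT, but 174 and 159 in the CX4945 pair (joint log2 fold change 0.44 ± 0.15, edgeR BH adjusted p = 0.213). Ptpn7, a tyrosine phosphatase of ERK and p38 in blood cells, had 764 and 462 reads in the DMAT pair and 676 and 649 in the CX4945 pair (-0.24 ± 0.11, adjusted p = 0.589). Rasa3, a GTPase activator for Ras, had log2 ratios of 0.61 and 0.56 (adjusted p = 0.396), and a larger one, 0.76, between the controls.

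Of 22 genes listed here as targets of ERK signalling, 19 were tested. Of these 1 fell, 0 rose and 18 did not pass, with a median joint log2 fold change of -0.02. Whether the RNA of the listed genes depends on ERK in these cells was not tested. The gene that fell was Srf, which encodes serum response factor. It had 123 reads in the control for DMAT, 78 with DMAT, 130 in the control for CX4945 and 57 with CX4945 (log2 fold change -0.77 ± 0.20, edgeR BH adjusted p = 0.0445). Just 26.3% of its reads were unique, and the call was lost with unique reads (adjusted p = 0.55), with each of the 3 other read filters (0.0846 to 0.324), in DESeq2 (1), without the block (0.999) and whichever library was left out. The log2 fold change stayed negative in all of these, at -0.73 with unique reads and at -0.95 to -0.60 when a library was left out. Fosl1, an AP-1 subunit, stood at -1.24 with DMAT and -0.54 with CX4945 and missed the threshold (edgeR BH adjusted p = 0.263), with 39.4% of its reads unique. Its joint log2 fold change was -0.89 with all reads and -0.55 with unique reads. Myc, the most abundant of the list, stood at 0.21 and -0.19 (adjusted p = 0.994). The immediate early gene Egr1 had 259 and 194 reads in the DMAT pair and 415 and 526 in the CX4945 pair, and differed more between the controls (log2 0.95) than within either pair. It was named after its values were seen.

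**Figure D5:**
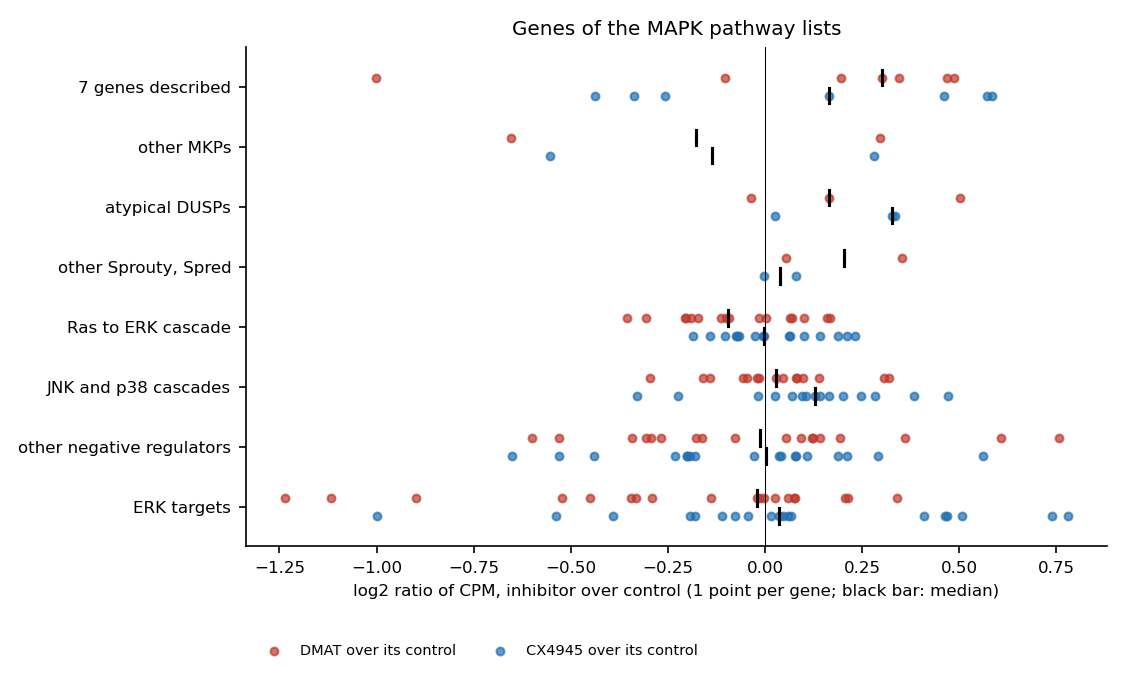
Log2 ratio of inhibitor over its own control (1 point per gene tested, black bar at the median) for the 7 genes and 7 related lists. The medians of the Ras to ERK cascade are -0.10 and 0.00, and the spread of the 7 genes with DMAT, from -1.0 to 0.49, is wider than that of the cascade. The ERK targets range from -1.24 to 0.34 with DMAT, so a wide spread is not particular to the 7 genes.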

How the data were processed

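Gene expression was measured by RNA sequencing of total RNA, with libraries made by a TruSeq RNA kit per the labels' protocols and read on an Illumina MiSeq per the series description. The authors deposited 1 table per library with whole-number counts of reads per feature. The deposited count of total exon reads, with no normalization, was used. Build mm9 and CASAVA 1.8.2 are named per the submitters' processing notes. The aligner, the annotation, the counting rule and the strand are not given in the sources used here. Counts were scaled by TMM (edgeR 4.0.16, R 4.3.3). Log2 ratios used a prior count of 2, and genes with under 20 reads summed over the 2 libraries of a pair were left out of it. Ratio intervals are exact conditional (Clopper-Pearson, SciPy 1.17.1) at 95%. Without molecular identifiers, reads are not separate molecules, so these intervals describe counting error alone.

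The joint fit used edgeR's quasi-likelihood test with the experiment as a block, a threshold of 0.05 after BH adjustment, and DESeq2 1.42.0 as an alternative. The SE is the absolute log2 fold change divided by the square root of F. The fit has 1 residual degree of freedom per gene and borrows the rest (35.2 prior degrees of freedom). The pairing comes from the titles, and the gap between experiments among controls correlated with the gap among inhibitor libraries (Pearson's r = 0.417 across 6968 genes, which are not independent replicates). The labels do not say that the pairs are from separate animals, so the p-values reflect library-to-library spread that may be technical. The fit and the intervals were tested on simulated data. Counts simulated for the fit had no gap between experiments and the same effect for both inhibitors. They do not show how the fit behaves where experiments or inhibitors differ.

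The 7 genes, the related lists and the tests were chosen with earlier results of these data known. In each related list the text names the genes that passed, the 2 with the lowest unadjusted p and the most abundant one, except for 1 gene that is not reported here. Promoters are from RefSeq, GRCm38.p6, matched by symbol. Exon lengths are those deposited. Map3k4, in 2 loci, and Spry3 were not analysed here.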

Additional observations from a re-analysis of the deposited data

Results flagged for a closer look

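For 3 of the 7 genes the log2 ratio to the titled control had opposite signs with the 2 inhibitors, a share near that among all genes tested (47.5%), and 0 of the 3 passed the joint test. With 1 library per arm the difference between the inhibitors was not tested, and they also differ in dose and experiment. Dusp2 had a log2 ratio of -0.10 with DMAT and 0.46 with CX4945. Dusp4 stood at 0.49 with DMAT and -0.26 with CX4945, and Dusp10 at 0.20 with DMAT and -0.34 with CX4945. The counting interval left out 1 for Dusp2 with CX4945 and for Dusp4 with DMAT, and included 1 for the other 4 of these 6 ratios.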

How the results depend on the processing

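The pair ratios of the 7 genes stayed within their counting intervals under other scalings, unique reads and a prior count of 0.5. The TMM factors lay between 0.991 and 1.01 and every exon read of these genes was unique. Other scalings and unique reads could therefore hardly move the ratios. A minimum of 100 reads leaves a gene's ratio as it is and drops Dusp1 from all 3 comparisons and Dusp4 from that of CX4945. Against the other inhibitor's control Dusp6 stood at -0.43 with DMAT and -1.01 with CX4945, and Dusp2 at -0.48 with DMAT and 0.84 with CX4945 (0.66 against the mean of both controls). The joint fit called 88 genes (35 higher, 53 lower; 718 had an unadjusted p under 0.05). It called 52 with no filter beyond 1 read, 54 with filterByExpr, 3 with at least 100 reads in each pair, 3 with DESeq2 and 1 with no replicate block. The filterByExpr and 100-read alternatives were chosen after seeing the data. Of the 7 genes 1 passed with filterByExpr, unique reads, DESeq2 size factors or total counts, and 0 with no filter, 100 reads, DESeq2 or without the block. There Dusp6 stood at -0.76, -0.76, -0.74 and -0.76 on the log2 scale. These fits use the same exon counts of Dusp6, so this size could hardly move. The adjusted p was not under 0.05 in any of them. The cause was not tested. Leaving out each library also drops the block and assumes that a lone sample varies like the others. It gave 1 to 40 calls, 0 of the 7 genes, and log2 fold changes of -1.02 to -0.44 for Dusp6, -0.30 to 0.64 for Dusp2, -0.41 to 0.62 for Dusp4, -0.40 to 0.25 for Dusp10, 0.27 to 0.68 for Dusp1, 0.11 to 0.82 for Dusp5, 0.092 to 0.54 for Spry1, -1.59 to -0.31 for Fosl1 and 0.21 to 1.03 for Rasa3. Signs turned too for Spred2 (-0.026 to 0.38), Mapk14 (-0.088 to 0.41), Mapkapk2 (-0.21 to 0.050), Ptpn7 (-0.65 to 0.16), Cblb (-0.046 to 0.84, adjusted p = 0.0303 without CX4945) and Myc (-0.10 to 0.12). Genes at least 2-fold different numbered 233 with DMAT (42 at 100 reads), 161 with CX4945 (25 at 100 reads, 103 with unique reads, 364 with the other control) and 219 between the controls (32 at 100 reads). Depth limits the low members: with 24 to 33 reads for Dusp1, its intervals reach 2.73-fold.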
